A study of Mus musculus with 8 samples.

Results

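The mouse Hox clusters hold a small set of miRNA genes, and their products mmu-miR-196a-5p, mmu-miR-196b-5p, mmu-miR-10a-5p, mmu-miR-10b-5p and mmu-miR-615-3p are described here across 8 small RNA libraries. The prefix mmu (mouse) is left out below. These 5 members were taken by name from 1978 miRNAs in the C2C12 count tables, 605 in the ATF4 table and 696 in the P19 table, and every member was listed in every table. The set was proposed because miR-196b-5p had the largest rise on PERK knockdown in P19 cells, so it was chosen by those P19 values, which are given below as a description with no test. The next values in that comparison were a log2 fold change of 3.43 for mmu-miR-141-3p, which was listed at 0 RPM in the control, and 3.09 for mmu-miR-881-3p, against 3.89 for miR-196b-5p.

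The study used C2C12, a mouse myoblast line that fuses into myotubes in differentiation medium, and P19, a mouse embryonal carcinoma line. C2C12 lines expressed either a hairpin against Perk (shPerk) or a negative control hairpin (shNC) and were sampled before induction (day 0) and after 3 days of differentiation (day 3). The paper describes its knockdown lines as stable lentiviral lines, with selection in puromycin. Its text does not spell out how the shNC line was made, so a shared vector and selection is not established here. The other C2C12 pair held an empty vector or an ATF4 expression vector under undifferentiated conditions, and the P19 pair held shNC or shPerk, with the culture stage of the P19 cells not given in the labels. Each group was 1 library. No comparison between groups therefore has a replicate check or a p-value, and whether a line was a pool or a clone was not given in the sources used here. Perk and Atf4 mRNA are not measured by small RNA libraries, so the knockdown and the overexpression were not checked here.

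PERK is the endoplasmic reticulum stress sensor kinase that phosphorylates eIF2α, which slows general translation and favours that of the transcription factor ATF4. Hox genes encode homeodomain transcription factors that give cells their position along the body axis, and their order in a cluster follows the order of their expression from head to tail. The miRNA genes sit among them and are usually active where their Hox neighbours are, and miR-196 is a known repressor of Hoxb8 and other Hox mRNAs. A miRNA pairs with its targets mainly through its seed, which is bases 2 to 8 from the 5′ end.

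The mature sequences show which members share a seed and which are hard to count apart. They are taken from RefSeq (GRCm38.p6), 5′ to 3′, with the seed in capitals.
miR-196a-5p: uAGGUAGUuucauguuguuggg
miR-196b-5p: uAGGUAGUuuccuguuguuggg
miR-10a-5p: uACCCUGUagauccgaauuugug
miR-10b-5p: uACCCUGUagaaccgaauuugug
miR-615-3p: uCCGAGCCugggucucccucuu

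miR-196a-5p and miR-196b-5p were identical at 21 of 22 bases, with the substitution A12C from the first to the second, counted from 1 at the 5′ end. miR-10a-5p and miR-10b-5p were identical at 22 of 23 bases, with the substitution U12A. Each pair shared its seed with no other of 1679 mature mouse miRNAs in RefSeq, and the seed of miR-615-3p occurred in no other. The members of a pair thus differ by a base outside the seed, and a read with an error or a mismatch allowed at that base could be counted for the other member. How the study assigned such reads is not given in the sources used here.

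Each member lies in a defined Hox neighbourhood (GRCm38, which is mm10, the build used by the study). Mir196b is in the HoxA cluster at chr6:52230081-52230165 on the minus strand and overlaps Hoxa9, with an exon of 2 of the 3 Hoxa9 transcripts over it, 1031 bp from Hoxa10. miR-196a-5p comes from 2 hairpins with the same mature sequence. Mir196a-1 is in HoxB at chr11:96265164-96265265 on the plus strand, between genes and 6191 bp from Hoxb9. Mir196a-2 is in HoxC at chr15:102973350-102973434 on the plus strand, between Hoxc10 and Hoxc9 and within an intron of 1 long Hoxc5 transcript. Mir10a is in HoxB at chr11:96317165-96317274 on the plus strand, between genes and 992 bp from Hoxb4. Mir10b is in HoxD at chr2:74726070-74726137 on the plus strand, in introns of Hoxd4 and Hoxd3 transcripts. Mir615 is in HoxC at chr15:103014910-103015001 on the plus strand, in an intron of Hoxc5. The annotation places 1 more miRNA gene in these clusters, Gm44463 at chr2:74701006-74701142 on the minus strand, which was not analysed here.

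The 3p arms separate the miR-196a hairpins, because only the 5p arms are the same.
miR-196a-1-3p (HoxB): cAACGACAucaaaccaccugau
miR-196a-2-3p (HoxC): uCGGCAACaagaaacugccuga

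The count libraries held 11321915 (shNC, day 0), 8800977 (shPerk, day 0), 11993448 (shNC, day 3) and 9428246 (shPerk, day 3) miRNA reads, and levels are given as counts-per-million of these reads (CPM). The ATF4 and P19 tables hold the authors' reads-per-million (RPM). Their values were whole multiples of a step in each library. For values up to 2000 RPM, 96.4%, 94.8%, 99.5% and 99.4% came within 0.1 of a whole read in the vector, ATF4, P19 shNC and P19 shPerk libraries, where 20% would by chance. By these steps 1 RPM stood for 10.6, 12.2, 7.92 and 4.46 reads. Reads recovered this way give the intervals for these tables. Intervals are 95% Clopper-Pearson intervals, except those of the differences between days, which are normal approximations. They cover counting error only, since each group is 1 library. The reads carry no molecular identifiers, so copies made in amplification are counted as separate reads. The tables were scaled separately, so levels set across them are a description.

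C2C12 and P19 carried different Hox miRNAs. miR-196a-5p, miR-615-3p and miR-196b-5p were abundant in all 6 C2C12 libraries, where miR-10a-5p and miR-10b-5p were rare. In the P19 control, miR-10b-5p, miR-10a-5p and miR-196a-5p were abundant, and miR-615-3p and miR-196b-5p were low. The members together took between 0.984% and 1.64% of the miRNA reads in C2C12 and 0.289% and 0.423% in P19 shNC and shPerk.

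miR-196a-5p was at 6882 CPM in shNC day 0, 9345 in shPerk day 0, 6816 in shNC day 3 and 6288 in shPerk day 3. It was at 5098 RPM with the vector, 5830 with ATF4, 537 in P19 shNC and 425 in P19 shPerk. The lowest C2C12 level was thus above both P19 levels. miR-615-3p, from the Hoxc5 intron, was at 4038, 6044, 2213 and 5599 CPM in the same order of count libraries, at 3981 and 3655 RPM in the vector and ATF4 libraries, and at 76.6 and 48.7 RPM in P19. Here shNC day 3 was the lowest of the C2C12 libraries. miR-196b-5p, the HoxA member, was at 1025, 988, 982 and 1139 CPM, at 751 and 1060 RPM in the vector and ATF4 libraries, and at 6.95 and 67.5 RPM in P19 shNC and shPerk. Its C2C12 levels lay closest together, between 751 and 1139, and P19 shNC stood far below the rest.

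miR-10a-5p, next to Hoxb4, was at 17.8 CPM (interval 15.5 to 20.5) in shNC day 0, 36.02 (32.2 to 40.2) in shPerk day 0, 11.0 (9.21 to 13.1) in shNC day 3 and 71.9 (66.6 to 77.5) in shPerk day 3. It was at 5.48 RPM (4.16 to 7.09) with the vector, 5.92 (4.63 to 7.45) with ATF4, 655 in P19 shNC and 343 in P19 shPerk. The 4 count libraries did not overlap in their counting intervals, with both shPerk libraries above both shNC libraries. miR-10b-5p, in the Hoxd4 introns, rested on 66, 55, 23 and 62 reads in shNC day 0, shPerk day 0, shNC day 3 and shPerk day 3. Those are 5.83, 6.25, 1.92 and 6.58 CPM. It was at 7.66 RPM with the vector, 3.62 with ATF4, 1617 in P19 shNC and 3340 in P19 shPerk. Only shNC day 3 stood below the other count libraries, and the counting intervals of those other 3 overlapped.

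**Figure D1:**
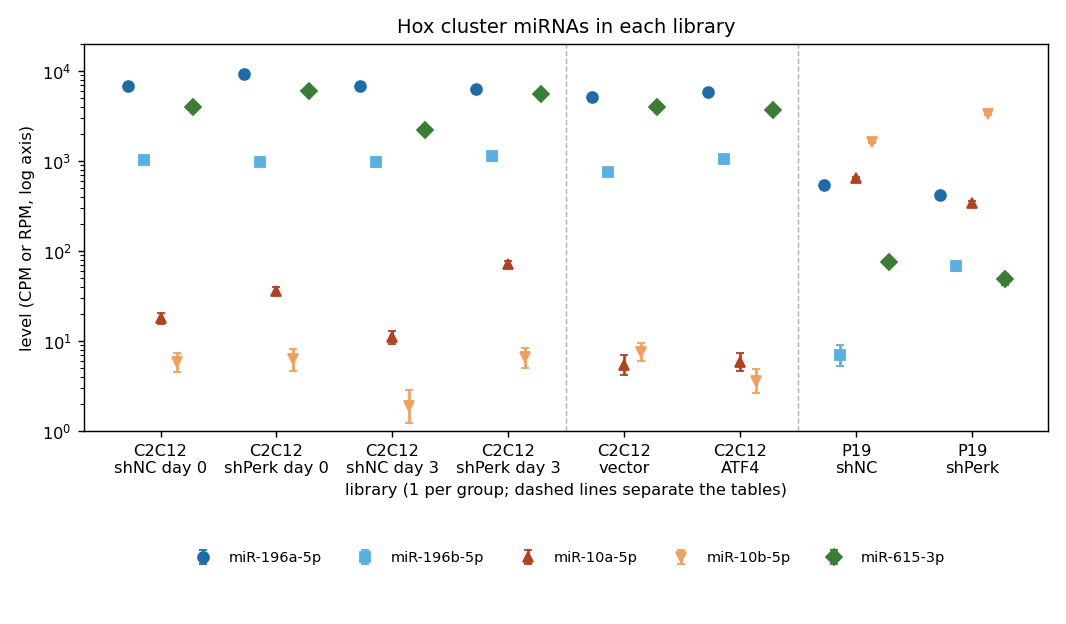
Level of each Hox cluster miRNA (vertical axis, CPM or RPM, log scale) in each of the 8 libraries (horizontal axis, 1 library per group). Bars are 95% counting intervals and dashed lines separate tables that were scaled separately. miR-10a-5p and miR-10b-5p sit at the bottom in C2C12 and miR-10b-5p at the top in P19.

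Within a library the order of the members was miR-196a-5p, miR-615-3p, miR-196b-5p, miR-10a-5p, miR-10b-5p in all 4 count libraries and with ATF4. The vector library had miR-10b-5p above miR-10a-5p, with overlapping counting intervals. In P19 shNC the order was miR-10b-5p, miR-10a-5p, miR-196a-5p, miR-615-3p, miR-196b-5p. In P19 shPerk it was miR-10b-5p, miR-196a-5p, miR-10a-5p, miR-196b-5p, miR-615-3p. All mature sequences are 22 or 23 bases long, so no length correction was applied, although ligation and amplification can favour some sequences.

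Set side by side, shNC day 0 and P19 shNC differed by 277-fold for miR-10b-5p and 36.7-fold for miR-10a-5p, both higher in P19. They differed by 147-fold for miR-196b-5p, 52.7-fold for miR-615-3p and 12.8-fold for miR-196a-5p, all higher in C2C12. Both C2C12 controls before differentiation, shNC day 0 and vector, give the only view of how far 2 control libraries lay apart. They come from separately scaled tables and differ in muscle markers (miR-1a-3p, miR-206-3p, miR-133a-3p and miR-133b-3p), which summed to 19165 CPM and 2467 RPM. Spread between controls, cell state and table cannot be told apart in their differences. shNC day 0 was 1.35 times the vector level for miR-196a-5p, 1.37 times for miR-196b-5p and 1.01 times for miR-615-3p. For miR-10a-5p it was 3.26 times the vector level, which is more than the difference between shPerk and shNC at day 0. The vector level of miR-10b-5p was 1.31 times that of shNC day 0.

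The cell lines matched their labels by miRNA markers. The embryonal carcinoma list, 9 miRNAs from the miR-290 and the miR-302 cluster, summed to 181662 and 414258 RPM in P19 shNC and shPerk and to between 0 and 0.442 CPM in the count libraries. None of the 9 was listed in the ATF4 table. Of the muscle list (4 miRNAs of the miR-1, miR-206 and miR-133 family), all were found in every C2C12 library. Their C2C12 sums ran from 2467 RPM with the vector to 88480 CPM in shNC day 3. In P19, 3 were listed, at a summed 34.5 and 96.9 RPM in shNC and shPerk. miR-1a-3p alone went the other way in the vector library, at 6.42 RPM against 21.2 and 69.6 RPM in P19.

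The 3p arm detected beside miR-196a-5p differed between the lines. miR-196a-2-3p, the HoxC arm, had 352, 267, 286 and 209 reads in shNC day 0, shPerk day 0, shNC day 3 and shPerk day 3. It was at 8.41 and 9.45 RPM in the vector and ATF4 libraries and was not listed in the P19 table. miR-196a-1-3p, the HoxB arm, had 0 reads in all 4 count libraries, with upper counting limits of 0.326, 0.419, 0.308 and 0.391 CPM. It was not listed in the ATF4 table and stood at 64.1 and 63.5 RPM in P19 shNC and shPerk. No library had a listed value above 0 for both arms. At the ratio to miR-196a-5p found in the C2C12 libraries, miR-196a-2-3p would stand at between 0.689 and 2.42 RPM in P19, near the lowest values listed, so its absence from that table does not show that the HoxC hairpin was silent. Relative to miR-196a-5p the arms also differed. miR-196a-2-3p made up 0.450%, 0.324%, 0.349% and 0.351% of the reads of both in the count libraries and 0.165% and 0.162% in the ATF4 table, while miR-196a-1-3p made up 10.7% (9.80 to 11.6) and 12.99% (11.6 to 14.5) in P19.

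Each minor arm of the other hairpins was rarer than the member from the same hairpin, though miR-615-5p stood above miR-10b-5p in every C2C12 library. miR-10b-3p had 1, 1, 0 and 0 reads in the count libraries and was at 19.96 and 27.15 RPM in P19 shNC and shPerk. miR-10a-3p had 1, 7, 0 and 3 reads and was at 6.82 and 3.81 RPM in P19. Neither was listed in the ATF4 table. miR-196b-3p had 30, 15, 24 and 2 reads, was at 1.42 and 1.23 RPM with vector and ATF4, and was not listed in P19. miR-615-5p, listed in C2C12 only, had 948, 570, 336 and 328 reads and was at 40.5 and 62.8 RPM with vector and ATF4.

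The share of the miR-615 hairpin's reads that came from the 5p arm varied within C2C12. It was 2.03% (interval 1.91 to 2.16) in shNC day 0 and 1.06% (0.975 to 1.15) in shPerk day 0. At day 3 it was 1.25% (1.12 to 1.39) in shNC and 0.618% (0.553 to 0.688) in shPerk. The vector library was at 1.01% (0.915 to 1.11) and the ATF4 library at 1.69% (1.57 to 1.81). The share was lower in shPerk than in shNC on both days and higher with ATF4 than with vector, without overlap of the counting intervals. The control libraries shNC day 0 and vector, which also differ in table and muscle markers, differed from each other by as much. The share of miR-196b-3p in its hairpin's reads was 0.258%, 0.172% and 0.203% in the first 3 count libraries and 0.0186% (0.00226 to 0.0672) in shPerk day 3, which rests on 2 reads.

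**Figure D2:**
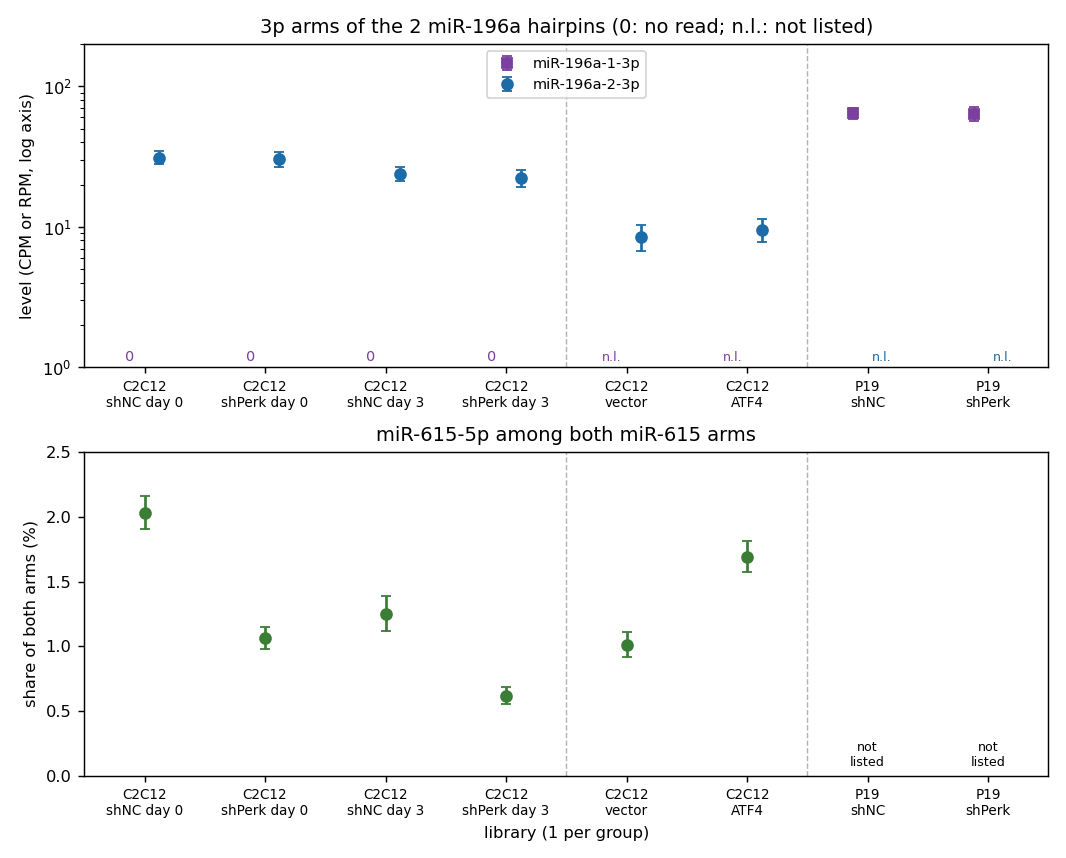
The upper panel shows the level (CPM or RPM, log axis) of the 3p arms that tell the miR-196a hairpins apart, with 0 for no read and n.l. for not listed. The lower panel shows miR-615-5p as a share (%) of both miR-615 arms, and bars are 95% counting intervals. miR-196a-2-3p has a level above 0 only in the C2C12 libraries and miR-196a-1-3p only in the P19 libraries.

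The balance inside each pair is free of the scaling between libraries. miR-10a-5p made up 75.4% (69.8 to 80.4), 85.2% (81.2 to 88.7), 85.2% (78.6 to 90.4) and 91.6% (89.4 to 93.5) of the miR-10 pair in shNC day 0, shPerk day 0, shNC day 3 and shPerk day 3. It made up 41.7% (33.4 to 50.4) with the vector, 62.1% (52.6 to 70.9) with ATF4, 28.8% (28.2 to 29.5) in P19 shNC and 9.32% (8.88 to 9.77) in P19 shPerk. The knockdown libraries thus had the higher miR-10a-5p share in C2C12 on both days, with counting intervals that overlapped at day 3 and not at day 0, and the lower share in P19, without overlap. The control libraries shNC day 0 and vector, at 75.4% and 41.7%, lay further apart than shPerk and shNC did on either day. Those controls also differ in table and muscle markers.

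miR-196b-5p made up 12.96%, 9.56%, 12.6% and 15.3% of the miR-196 pair in the count libraries, 12.8% with the vector and 15.4% with ATF4. It made up 1.28% (0.964 to 1.66) in P19 shNC and 13.7% (12.3 to 15.2) in P19 shPerk. The P19 shPerk share lay within the range of the C2C12 libraries, and the P19 shNC share lay below it.

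**Figure D3:**
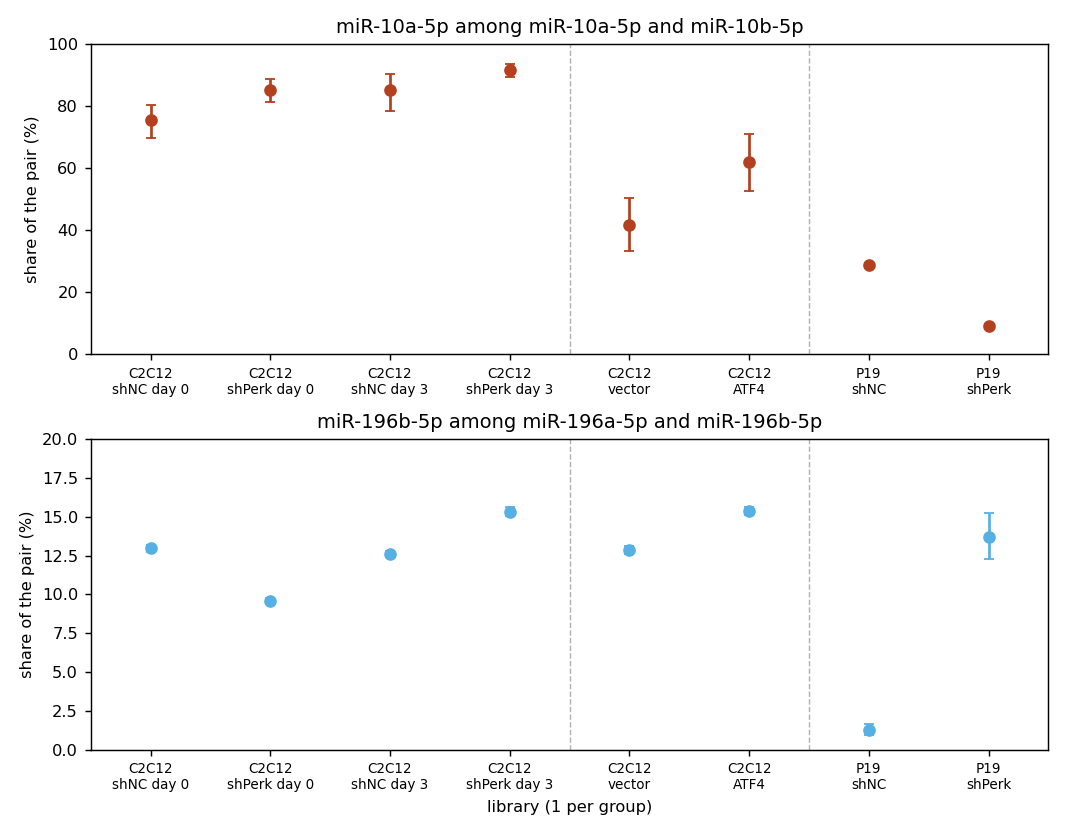
Share (%) of miR-10a-5p in the miR-10 pair (upper panel) and of miR-196b-5p in the miR-196 pair (lower panel) in each library, with 95% counting intervals. miR-10a-5p falls from 91.6% in C2C12 shPerk day 3 to 9.32% in P19 shPerk, and miR-196b-5p stands at 1.28% in P19 shNC.

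Fold changes were computed with TMM scaling over all miRNAs, and a log2 fold change above 1 or below -1 made a call. The comparisons ask what loss of PERK does to the miRNA profile in proliferating and differentiating myoblasts and in embryonal carcinoma cells, and what ATF4 does in myoblasts. The 4 count libraries enter 2 comparisons each, so the knockdown and the differentiation comparisons share libraries and are given side by side.

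At day 0 in C2C12, miR-10a-5p was the only member called, with 202 reads in shNC, 317 in shPerk and a log2 fold change of 1.15 (0.89 to 1.41). Of all 602 miRNAs tested, 15.6% were called higher and 20.3% lower. The others stood at 0.72 for miR-615-3p, 0.57 for miR-196a-5p, 0.23 (-0.31 to 0.77) for miR-10b-5p and 0.08 for miR-196b-5p. The call of miR-10a-5p was lost with a filter of 10 CPM, at 0.93. Its excess is smaller than its difference between the shNC day 0 and vector controls, which also differ in table and muscle markers.

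At day 3 in C2C12, 3 of the 5 members were called higher in shPerk and none lower, against 21.9% higher and 23.0% lower of all 575 miRNAs tested. miR-10a-5p had 132 reads in shNC and 678 in shPerk, which gave a log2 fold change of 3.04 (2.77 to 3.32), number 35 from the top. The 23 and 62 reads of miR-10b-5p gave 2.10 (1.40 to 2.87), and the 26544 and 52787 reads of miR-615-3p gave 1.67 (1.65 to 1.69). The miR-196 pair stood at 0.55 for miR-196b-5p and 0.22 for miR-196a-5p, under the limit. Scaled by total reads, which shifts the median of all miRNAs by -0.33, the called members stood at 2.71, 1.77 and 1.34, and miR-196a-5p at -0.12. That scaling gave 93 higher and 166 lower miRNAs, against 126 and 132 with TMM.

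The change with knockdown was larger at day 3 than at day 0 beyond counting error for 4 members. The difference of the 2 log2 fold changes was 1.89 (1.52 to 2.26) for miR-10a-5p, 1.87 (1.01 to 2.73) for miR-10b-5p, 0.96 (0.93 to 0.98) for miR-615-3p and 0.47 (0.41 to 0.52) for miR-196b-5p. For miR-196a-5p it was -0.36 (-0.38 to -0.34). These differences depend on the scaling, and by total reads they were 1.69, 1.67, 0.76, 0.27 and -0.56 in the same order, with the last 2 moved by more than 1.5 times. The intervals are normal approximations from the reads and do not cover the choice of scaling, and the spread between cultures was not measured.

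Markers of other states moved in the same libraries. At day 3 the muscle list summed to 88480 CPM in shNC and 24312 in shPerk, with 4 of 4 called lower and a median log2 fold change of -2.88, where that of all miRNAs was 0.01. The neural list (5 miRNAs, 3 tested) summed to 588 and 4220 CPM, with 3 of 3 called higher and a median of 2.72, while miR-124-3p, its defining member, had 0 reads in all 4 count libraries. At day 0 the muscle list went from 19165 to 3839 CPM with 3 of 4 called lower, and the neural list from 193 to 2784 CPM with 2 of 3 called higher. The mesenchymal list had no call on either day. The part of these shifts in the changes of the Hox miRNAs was not tested. In such bulk libraries fewer cells of a type and less RNA per cell cannot be told apart.

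Over differentiation of the control line, miR-10b-5p was the only member called. It had 66 reads at day 0 and 23 at day 3, which gave a log2 fold change of -1.33 (-2.09 to -0.63), against 16.5% of 593 miRNAs called lower and 12.5% higher. The values of -0.60 for miR-615-3p and -0.43 (-0.76 to -0.11) for miR-10a-5p did not pass the limit. miR-196a-5p and miR-196b-5p stood at 0.25 and 0.20, and at -0.01 and -0.06 by total reads. The other arm of miR-615, miR-615-5p, was called lower, with 948 and 336 reads and a log2 fold change of -1.31 (-1.498 to -1.13).

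In the shPerk line over the same 3 days, miR-10a-5p alone was called, with 317 reads at day 0, 678 at day 3 and a log2 fold change of 1.36 (1.16 to 1.55). Of 573 miRNAs, 16.9% were called higher and 16.9% lower, and by total reads the value of miR-10a-5p was 0.997, just under the limit. The remaining members stood at 0.56 for miR-196b-5p, 0.43 (-0.12 to 0.98) for miR-10b-5p, 0.25 for miR-615-3p and -0.21 for miR-196a-5p. Total-read scaling gave 51 higher and 140 lower miRNAs in the control line, against 74 and 98 with TMM, and 58 and 161 in the shPerk line, against 97 and 97. The muscle list was called higher, 4 of 4, in both lines, and the neural list in 2 of 3 with shNC and 1 of 3 with shPerk. Of the mesenchymal list, 1 of 4 was called higher in each line, with a median log2 fold change of 0.88 with shNC (59894 to 91223 CPM summed) and 0.48 with shPerk (64064 to 72554 CPM). Their part in the changes of the Hox miRNAs was not tested.

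With ATF4 in C2C12, only miR-10b-5p passed the limit, and barely. It was at 7.66 RPM with the vector and 3.62 with ATF4, which is 81 and 44 recovered reads and a log2 fold change of -1.02 (-1.58 to -0.47), against 8.93% of 605 miRNAs called lower and 14.4% higher. It was not called on the log2(RPM + 1) scale, at -0.85. miR-196b-5p stood at 0.56, miR-196a-5p at 0.26, miR-10a-5p at 0.18 (-0.34 to 0.70) and miR-615-3p at -0.06. The vector and ATF4 levels of miR-10a-5p, 58 and 72 reads, overlapped in their counting intervals. In the same pair 2 of 4 muscle markers were called higher, from a summed 2467 to 3790 RPM, as were 2 of 2 neural markers tested, from 79.1 to 248 RPM, and their part was not tested.

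**Figure D4:**
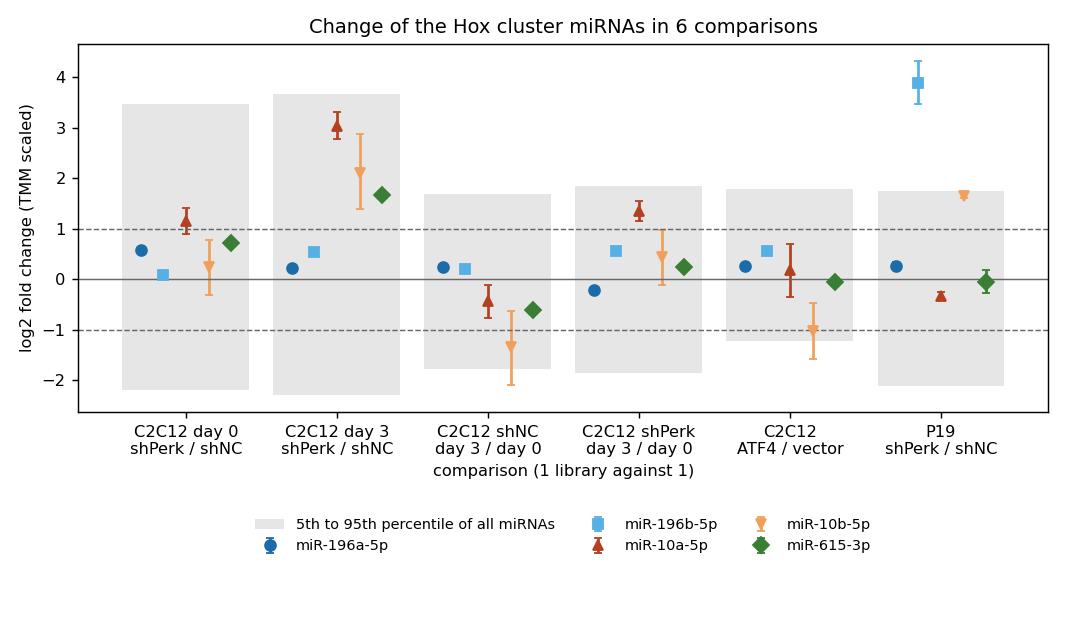
Log2 fold change (TMM scaled, vertical axis) of each member in the 6 comparisons (horizontal axis, 1 library against 1). Bars are 95% counting intervals, dashed lines mark the limit of 1 in each direction, and grey bands span the 5th to 95th percentile of all miRNAs tested. In C2C12 day 3 miR-10a-5p stands at 3.04 and in P19 miR-196b-5p at 3.89.

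In P19, where the set was chosen, miR-196b-5p stood at 6.95 RPM in shNC and 67.5 RPM in shPerk, which is 55 and 301 recovered reads. Its log2 fold change was 3.89 (3.47 to 4.33), the largest of 696 miRNAs, of which 17.7% were called higher and 17.7% lower. miR-10b-5p was also called higher, at 1617 and 3340 RPM (12804 and 14888 reads), with a value of 1.65 (1.62 to 1.69). miR-196a-5p stood at 0.27, miR-615-3p at -0.05 (-0.28 to 0.18) and miR-10a-5p at -0.33 (-0.41 to -0.25). The scaling matters here, since total reads shift the median of all miRNAs by -0.61 and give 45 higher and 247 lower miRNAs against 123 and 123. By total reads miR-196b-5p stood at 3.28, miR-10b-5p at 1.05, miR-196a-5p at -0.34, miR-615-3p at -0.65 and miR-10a-5p at -0.93.

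The other arms in P19 gave 1.05 (0.70 to 1.40) for miR-10b-3p, 0.59 (0.38 to 0.81) for miR-196a-1-3p and -0.24 (-1.11 to 0.58) for miR-10a-3p. In the same pair, 6 of the 9 embryonal carcinoma markers were called higher and 1 lower, and miR-302b-3p alone took 7.65% of the shNC and 18.1% of the shPerk reads. All 3 muscle markers listed were called higher, from a summed 34.5 to 96.9 RPM, and 2 of 4 mesenchymal markers, from 112 to 251. The neural list went from 3685 to 1523 RPM, with 1 of 4 called higher and 1 lower. The part of these shifts in the changes of the Hox miRNAs was not tested.

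**Figure D5:**
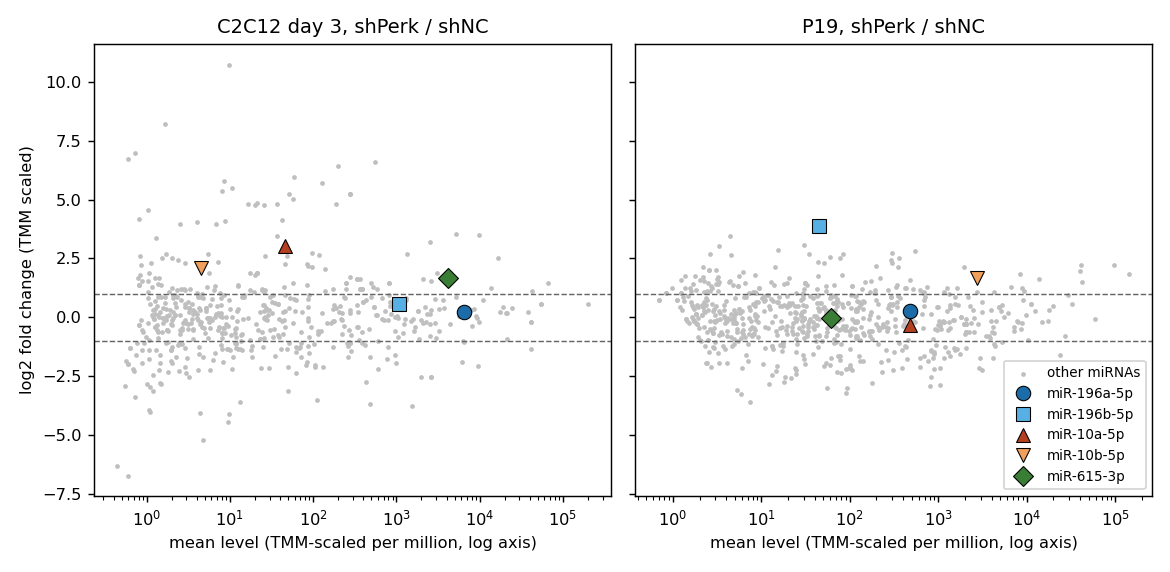
Log2 fold change (TMM scaled, vertical axis) against mean level (TMM-scaled CPM or RPM, log axis) of all miRNAs tested in C2C12 day 3 (left) and P19 (right), with the members in colour and the limit of 1 dashed. miR-10a-5p, miR-10b-5p and miR-615-3p lie above the limit on the left, and miR-196b-5p and miR-10b-5p on the right.

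Relatives of the members by sequence behaved in part differently. miR-99 and miR-100 descend from the same ancestor as miR-10 but lie outside the Hox clusters. miR-100-5p shares 11 bases in a row with miR-10a-5p, though not the seed.
miR-100-5p: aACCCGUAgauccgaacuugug
Of the 3 miRNAs on this list, miR-99a-5p was called higher in shPerk at day 3, with 65551 reads in shNC, 236763 in shPerk and a log2 fold change of 2.53, and over differentiation of the shPerk line, at 1.82. In the day 3 knockdown miR-99b-5p, the most abundant of the list in the control libraries, stood at 0.07 and miR-100-5p at 0.35. In each of the other 4 comparisons 0 of 3 were called.

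The let-7 family, abundant in differentiated cells, contains the seed of miR-196 shifted by a base, AGGUAGU from base 3 in let-7a-5p and from base 2 in miR-196a-5p.
let-7a-5p: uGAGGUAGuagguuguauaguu
None of the 10 let-7 and miR-98 members was called in any of the 5 C2C12 comparisons, where their log2 fold changes lay between -0.81 and 0.78. In P19, 2 of 9 were called higher, against 17.7% of all 696 miRNAs. These were let-7c-5p at 1.39 and let-7b-5p at 1.04, the latter from only 5.81 RPM in shNC and 7.85 in shPerk. The median of the 9 was -0.08, and that of all miRNAs -0.04.

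The search for like patterns took the 366 other miRNAs listed in every table whose mean level over the 8 libraries reached 10 CPM or RPM. The embryonal carcinoma markers, not listed in the ATF4 table, and miR-206-3p, not listed in P19, could not enter. Among the miRNAs that entered, those with the pattern most like each member were found by the root-mean-square difference of centred log2 levels. For miR-196a-5p these were miR-22-3p (0.15), miR-27a-3p (0.32) and miR-140-5p (0.49). For miR-615-3p they were miR-21a-5p (0.48), miR-99a-5p (0.52) and let-7e-5p (0.54), and for miR-196b-5p they were miR-31-5p (0.61), miR-21a-5p (0.82) and miR-24-2-5p (0.88). miR-10b-5p was nearest to miR-340-5p (0.63), miR-18b-5p (0.79) and miR-106a-5p (1.08), and miR-10a-5p to miR-126a-5p (0.89), miR-126a-3p (0.98) and miR-669a-3p (0.98). The points share their libraries and scaling, and the contrast between C2C12 and P19 makes up most of each pattern.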

How the data were processed

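Small RNA libraries (8, 1 per group) were made by a company and annotated by the authors with bowtie against the mouse genome (mm10, per the labels). The aligner version, the allowed mismatches and the rule for reads matching several miRNAs are not given in the sources used here. The authors deposited raw read counts per mature miRNA for the 4 C2C12 hairpin libraries (3 tables that repeat libraries) and RPM values (reads-per-million of miRNA reads, with nothing listed between 0 and 1) for the ATF4 and P19 pairs. The authors' fold changes, p-values and q-values in these tables were not used.

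Count comparisons required 1 CPM or more in either library and used TMM factors and the default prior count of edgeR (version 4.0.16). RPM comparisons used TMM factors on the RPM values, with 0 set to the lowest listed value. A call is a log2 fold change beyond 1, and no between-condition test was run. Depth ranged from 8800977 to 11993448 reads in the count libraries, and 1 RPM stood for 4.46 to 12.2 reads in the others. Intervals came from scipy (version 1.17.1). Alternatives were total-read scaling, DESeq2 (version 1.42.0) size factors, other filters and prior counts, summed pairs and a two-sided exact binomial test on reads. Recovering reads from RPM was added after seeing the data. The text names the members, their other arms, fixed lists of relatives and markers, and the 3 nearest patterns. Members and lists were chosen with earlier results of these data known. Fold changes, intervals and the search for the RPM step were tested on simulated reads with counting error only. That simulation scaled by total reads and used the count formula throughout. It therefore did not test TMM scaling or the fold changes computed on RPM values.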

Additional observations from a re-analysis of the deposited data

Results flagged for a closer look

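Some members moved in opposite directions under the same contrast. With 1 library per group these differences were not tested beyond counting error, and the comparisons within C2C12 share libraries.

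Over 3 days of differentiation, the log2 fold change of miR-10a-5p was -0.43 in the shNC line and 1.36 in the shPerk line. For miR-10b-5p it was -1.33 and 0.43, where the second has a counting interval that spans 0 (-0.12 to 0.98) and was 0.07 by total reads, and for miR-615-3p -0.60 and 0.25. miR-196a-5p went the other way, at 0.25 and -0.21. By total reads miR-10a-5p stood at -0.70 and 0.997, and miR-615-3p and miR-196a-5p were below 0 in both lines, at -0.87 and -0.11 for the first and -0.01 and -0.57 for the second.

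With PERK knockdown, miR-10a-5p stood at 1.15 at day 0 and 3.04 at day 3 in C2C12 and at -0.33 in P19. miR-615-3p stood at 0.72 and 1.67 in C2C12 and at -0.048 in P19, where its counting interval spans 0. The P19 values belong to the comparison by which the set was chosen.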

How the results depend on the processing

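Of 164 values of single members under another setting, 145 kept their direction and their side of the limit, 7 fell under the limit, 11 that were not called changed sign and none that was called reversed. Of those not called, 2 passed the limit with each pair summed, miR-10b-5p in shPerk differentiation at 1.25 and, with a change of sign, miR-10a-5p in P19 at 1.30. No paired analysis was possible because each group has 1 library and the labels give no replicate numbers that pair libraries. Leaving out a replicate was likewise not possible.

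With a filter of at least 10 CPM or RPM, 0 members were called at day 0, where miR-10a-5p stood at 0.93. In shNC differentiation and with ATF4 this filter removed miR-10b-5p, the only member called there. The 0 calls that remain in those comparisons therefore say nothing about its change. At day 3 in the knockdown comparison the filter also removed miR-10b-5p, and 2 members stayed called, beside 79 higher and 84 lower of all miRNAs. The number of miRNAs that passed this filter is not given here, so no share stands beside these calls. With each pair summed, 0 members were called at day 0, in shNC differentiation and with ATF4. In shPerk differentiation 2 were called, which are 1 summed value, beside 98 higher and 97 lower of all 573 miRNAs. With summed pairs miR-196b-5p in P19 gave 0.46, since miR-196a-5p outweighs it. With total reads 0 members were called in shPerk differentiation, beside 58 higher and 161 lower of all 573 miRNAs. With log2(RPM + 1) 0 were called with ATF4, beside 85 higher and 70 lower of all 605.

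Counts over all miRNAs moved with the filter, and the numbers of miRNAs that entered under the other filters are not given here. Without a filter 220 were higher and 368 lower at day 0, 268 and 359 at day 3, 249 and 307 in shNC differentiation and 257 and 254 in shPerk differentiation. At 10 CPM these were 47 and 79, 79 and 84, 42 and 48, and 62 and 42, with 52 higher with ATF4. Total-read scaling gave 58 higher and 161 lower in shPerk differentiation and 45 and 247 in P19. Without the most abundant miRNA of each library, the highest summed level of the members went from 16419 to 21077 CPM.

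On reads recovered from RPM, an alternative chosen after seeing the data, the fold limit with an adjusted p of the exact binomial test on reads called 87 miRNAs higher and 52 lower with ATF4 and 111 and 119 in P19, which compares those libraries and not the conditions. The cause of these shifts was not tested, except that a filter changes how many miRNAs enter. With 1 library per group the spread between cultures is unknown. At 23 to 81 reads in C2C12, miR-10b-5p is the member whose values depth limits most.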
